A study of Mus musculus with 18 samples.

Results

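The genes described here are 36 genes of DNA break repair and the damage checkpoint, chosen by gene symbol as members of homologous recombination, the Fanconi pathway and the checkpoint kinases. They are 36 of the 55573 genes in the deposited table. All 36 passed the filter on low values, a minimum of 1 TPM reached in 6 or more libraries, as did 15216 genes in all. TPM is an abundance scaled for transcript length and to a fixed total per library.

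The study measured total RNA by sequencing in 18 cultures of neural progenitor cells from the cortex of C57BL/6 mice, the dividing cells that give rise to cortical neurons and glia. The Upf2 Trp53 Cre group carried floxed alleles of both genes (Upf2fl/fl Trp53fl/fl) and received AAV9-Cre, an adeno-associated virus that delivers Cre recombinase, and the Upf2 Cre group carried floxed Upf2 alone (Upf2fl/fl) and received the same virus. The Upf2 mock group was the Upf2fl/fl line given medium in place of virus. Each group had 6 libraries, numbered 3, 4, 5, 6, 8 and 9, from cells harvested 72 h after infection, with the virus removed at 14 h. The 3 groups share the floxed Upf2 alleles. No mock group of the doubly floxed line and no virus without Cre was among the samples, so Trp53 genotype and line cannot be told apart, nor can Cre and virus. The labels call the libraries biological replicates without saying whether they came from separate animals, so the p values measure the spread between these cultures. Upf2 is needed for nonsense-mediated decay, the pathway that degrades mRNAs with a premature stop codon, and Trp53 codes for p53, a transcription factor that halts the cell cycle after DNA damage.

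Cells repair a broken chromosome by homologous recombination when they can copy the intact sister, which is present after replication. The break ends are cut back to single strands, BRCA2 loads the recombinase that finds the matching sequence, and helicases and nucleases take the joined molecules apart. The Fanconi proteins unhook crosslinks between the strands at stalled replication forks, and the kinases ATM and ATR signal breaks and stalled forks to CHEK2 and CHEK1, which hold the cell cycle. Many of these genes are transcribed with the cell cycle, under E2F factors, and neural progenitors, which divide fast, depend on them: loss of several of them in mice or people reduces brain size.

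Trp53 averaged 16.5 ± 1.69 TPM in Upf2 Trp53 Cre libraries, 138 ± 35.0 TPM in Upf2 Cre libraries and 104 ± 18.2 TPM in Upf2 mock libraries (SD, n = 6 each). Its difference on the log2(TPM + 1) scale was -2.57 for Upf2 Trp53 Cre against Upf2 mock (exact two-sided permutation test, p = 0.0022, the smallest 6 against 6 libraries allow). Upf2 averaged 33.8 ± 9.03 TPM in Upf2 Trp53 Cre, 20.2 ± 4.82 TPM in Upf2 Cre and 11.1 ± 2.98 TPM in Upf2 mock libraries (SD, n = 6 each), so its summed level was higher, not lower, in the libraries labelled Cre. The value sums all exons of the gene, floxed or not, and so does not measure the deletion. All 8 neural progenitor markers were at 1 TPM or more in all 18 libraries, and so were 5 of 6 astrocyte, 5 of 7 oligodendrocyte lineage and 3 of 8 neuronal markers (Tubb3, Map2 and Nefm). All 6 microglial markers stayed below 1 TPM in every library, with Aif1 and C1qa at 0 in all of them, as did 6 of 7 vascular markers. The number of genes at 1 TPM or more was 14019 in the lowest and 15210 in the highest library, and the depth is unknown, since TPM keep no read totals.

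**Figure D1:**
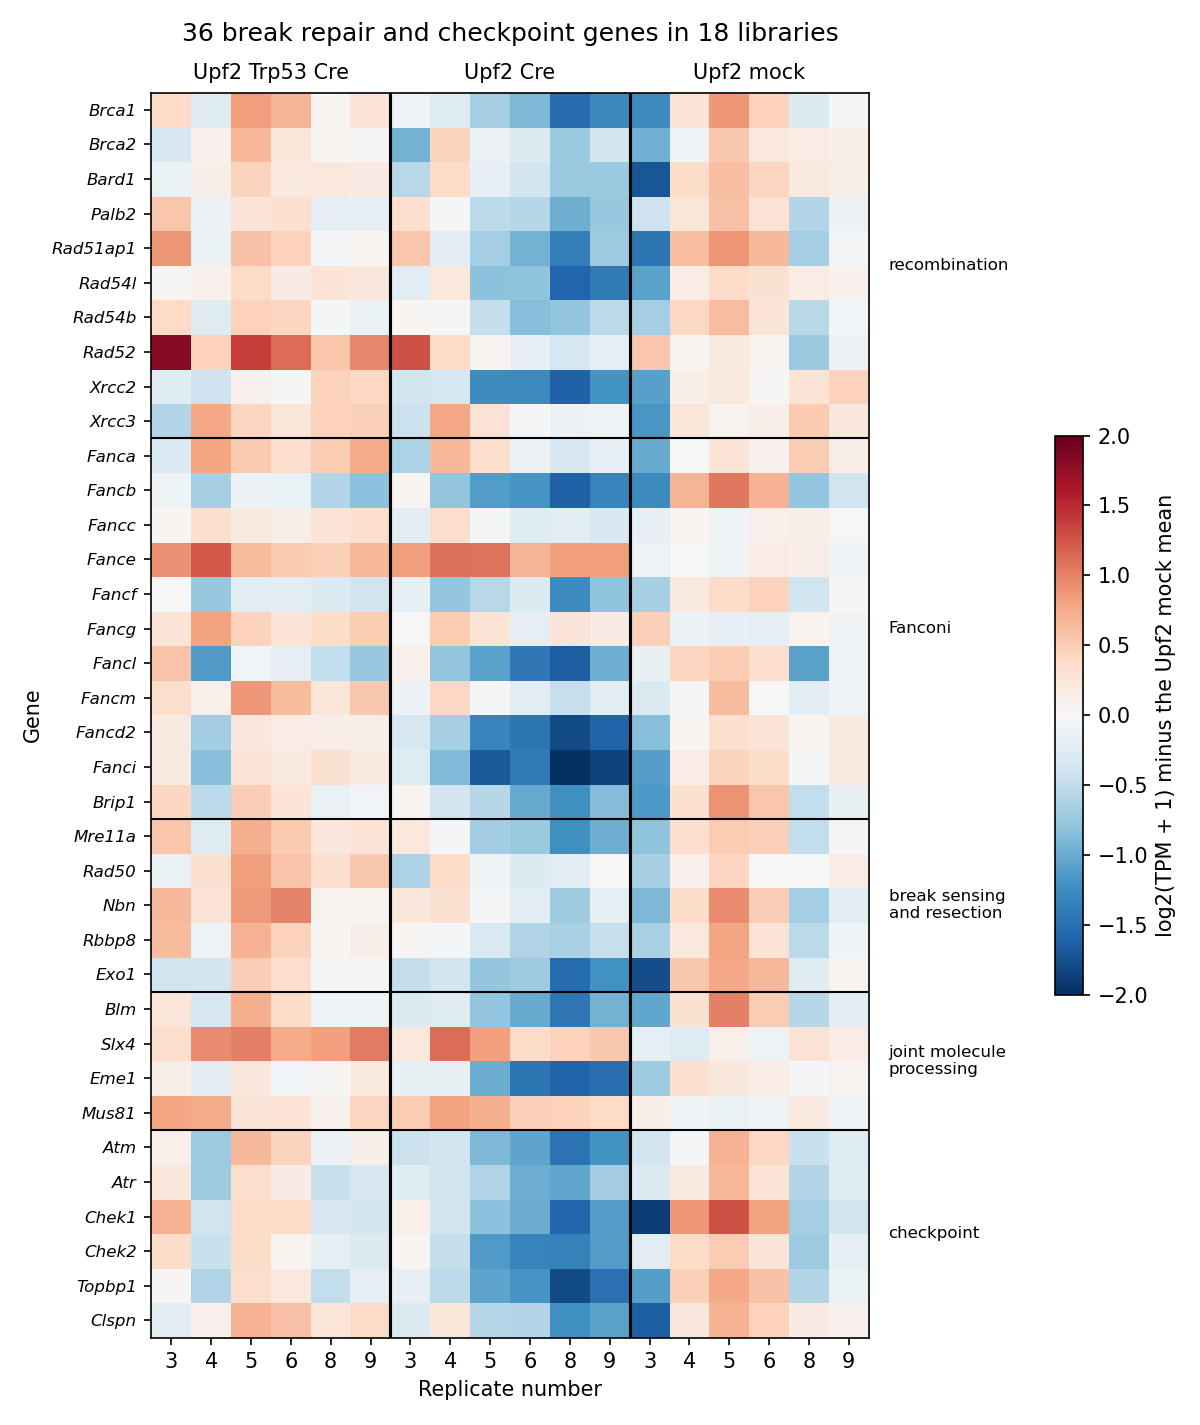
Each cell gives log2(TPM + 1) of a gene in a library minus its mean in the 6 Upf2 mock libraries, with genes down the page by role and libraries across by group and replicate number; blue is lower and red higher, and the colours stop at 2 in each direction, while the values ran from -2.10 to 1.82. In Upf2 Cre replicates 5, 6, 8 and 9 and Upf2 mock replicate 3, 29 to 33 of the 36 cells are below 0, against 3 to 23 in the other 13 libraries, and Fance, Slx4 and Mus81 are red in both Cre groups.

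Fanci, Fancd2 and 11 others of these genes were at lower levels in Upf2 Cre than in Upf2 mock cells, while Fance, Slx4 and Mus81 were at higher levels. Of the 36 genes, 13 were lower and 3 were higher at an adjusted p under 0.05 (limma over all 15216 genes, Benjamini-Hochberg), and 20 were not called. Of all tested genes 24.2% were lower and 16.5% were higher in this comparison, against 36.1% and 8.33% of the 36. The median log2 difference of the 36 genes was -0.58, against -0.12 over all tested genes, and 30 of the 36 differences were below 0. Folds and differences are on the log2(TPM + 1) scale, which understates changes of genes with low levels. In total RNA from a culture, fewer cells that express a gene and less RNA per cell cannot be told apart.

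The largest falls were in the pair of Fanconi proteins that is ubiquitinated and clamped onto DNA when the pathway is switched on. Fanci (ENSMUSG00000039187.16; GRCm38 chromosome 7, 79391929 to 79450264, plus strand) had 4.63 TPM in the lowest, 7.33 in the median and 19.1 in the highest Upf2 Cre library, against 10.3, 26.0 and 31.7 TPM in Upf2 mock libraries. All 6 Upf2 Cre libraries lay below 5 of the 6 Upf2 mock libraries, and replicates 3 and 4 of Upf2 Cre lay above the remaining one, Upf2 mock replicate 3. The log2 difference was -1.36 ± 0.31 (SE; adjusted p = 0.0028), a level 0.389 times that of Upf2 mock. Its partner Fancd2 (chromosome 6, 113531682 to 113597017, plus strand) had 3.11, 4.48 and 10.4 TPM in the lowest, median and highest Upf2 Cre library, against 6.94, 14.4 and 16.9 TPM in Upf2 mock. The same libraries overlapped as for Fanci, and the difference was -1.19 ± 0.26 (adjusted p = 0.0022).

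Among the Fanconi core complex, which carries the ligase that modifies this pair, the members moved in both directions. Fancl, the ligase subunit, had 2.04, 3.72 and 9.32 TPM in Upf2 Cre libraries, against 3.57, 9.65 and 12.7 TPM in Upf2 mock (lowest, median and highest; difference -0.97 ± 0.32, adjusted p = 0.022). Fancb, an X-linked subunit of the ligase module, had 1.27, 2.14 and 6.23 TPM in Upf2 Cre, against 1.88, 7.24 and 13.5 TPM in Upf2 mock (-0.997 ± 0.35, adjusted p = 0.031). Fancf, an adaptor subunit with a single exon, was also lower, at -0.65 ± 0.22 (adjusted p = 0.024), with medians of 2.33 TPM in Upf2 Cre and 4.67 TPM in Upf2 mock. All 3 pairs of groups overlapped.

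Fance, the subunit that brings FANCD2 to the core complex, did the opposite. Fance (ENSMUSG00000007570.16; chromosome 17, 28313519 to 28326572, plus strand) had 41.6, 46.6 and 56.3 TPM in the lowest, median and highest Upf2 Cre library, against 23.7, 24.9 and 28.5 TPM in Upf2 mock libraries. Every Upf2 Cre library lay above every Upf2 mock library, and the difference was 0.89 ± 0.14 (adjusted p = 0.00024), a 1.86-fold higher level. Fanca, Fancc, Fancg and Fancm, with differences of -0.04, -0.11, 0.17 and -0.11, were not called, nor was the helicase gene Brip1 at -0.67 ± 0.30 (adjusted p = 0.078). Of the 11 Fanconi genes, 5 were lower and 1 was higher, against 24.2% and 16.5% of all tested genes.

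Nucleases and helicases that take joined DNA molecules apart were called in all 4 cases, 2 lower and 2 higher. Of all tested genes 24.2% were lower and 16.5% higher. MUS81 and EME1 form a single nuclease, and their mRNAs moved apart. Eme1 had 6.03, 8.22 and 18.3 TPM in Upf2 Cre libraries, against 11.96, 21.8 and 25.5 TPM in Upf2 mock libraries (difference -0.97 ± 0.25, adjusted p = 0.0062). Upf2 Cre replicates 3 and 4, both above 18 TPM, overlapped with Upf2 mock replicate 3 only. Mus81 (ENSMUSG00000024906.10; chromosome 19, 5482345 to 5488402, minus strand) had 39.2, 41.7 and 52.1 TPM in Upf2 Cre, against 26.9, 28.1 and 34.0 TPM in Upf2 mock (0.56 ± 0.14, adjusted p = 0.0057). Its groups did not overlap.

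The scaffold gene Slx4, whose protein docks several such nucleases, had 17.2, 21.2 and 33.1 TPM in Upf2 Cre libraries, against 12.2, 14.8 and 18.2 TPM in Upf2 mock libraries. Only the lowest Upf2 Cre library, replicate 3, fell within the Upf2 mock range, and the difference was 0.58 ± 0.17 (adjusted p = 0.012). Blm, the helicase lost in Bloom syndrome, was lower at -0.78 ± 0.30 (adjusted p = 0.043), with 1.99, 3.43 and 5.85 TPM in Upf2 Cre against 2.95, 7.45 and 15.3 TPM in Upf2 mock. Fance and Mus81 were the only 2 of the 36 whose groups did not overlap on the higher side, 5.56% of the 36 against 3.79% of all tested genes, and none of the 36 had all Upf2 Cre libraries below all Upf2 mock libraries, against 2.07% of all tested genes.

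In the recombination group, 2 of 10 genes were lower and none was higher. Of all tested genes 24.2% were lower, which is near the share of this group, and 16.5% were higher. By limma, 3 of the 36 genes were higher and 17 lower at an unadjusted p under 0.05. The share of all tested genes at that unadjusted threshold was not computed, so these counts are not read as a result about the 36. Xrcc2, a paralogue of the recombinase that helps its filament form, had 4.71, 6.45 and 12.7 TPM in Upf2 Cre libraries, against 7.23, 18.7 and 23.0 TPM in Upf2 mock libraries (-1.02 ± 0.26, adjusted p = 0.0064). The overlap lay between Upf2 Cre replicates 3 and 4 and the low Upf2 mock replicate 3. Rad54l, a motor protein that drives strand exchange, had 5.69, 10.4 and 22.3 TPM in Upf2 Cre, against 8.53, 21.2 and 25.1 TPM in Upf2 mock (-0.77 ± 0.28, adjusted p = 0.033).

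Brca1, whose protein promotes end resection and recombinase loading, missed the threshold at -0.79 ± 0.31 (adjusted p = 0.051), with 3.22, 6.11 and 10.5 TPM in Upf2 Cre against 4.04, 12.3 and 21.2 TPM in Upf2 mock. Its binding partner Bard1, Palb2, which bridges BRCA1 to BRCA2, and Brca2 itself had differences of -0.37, -0.42 and -0.33, none called. Rad51ap1 at -0.56, Rad54b at -0.44, Rad52 at 0.17 and Xrcc3 at 0.06 were not called either. Of the exonic bases of Rad54b, 35.8% lie on the same strand as exons of Fsbp, so reads of these genes may have been split and its value is uncertain.

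No gene of break sensing and end resection was called among 5, against 40.7% of all tested genes called in either direction. Exo1, a nuclease that extends resection, came closest at -0.85 ± 0.34 (adjusted p = 0.051), with 3.14, 6.18 and 8.21 TPM in Upf2 Cre libraries against 2.52, 14.0 and 19.2 TPM in Upf2 mock libraries. All Upf2 Cre libraries lay below 5 of the 6 Upf2 mock libraries and above the remaining one, replicate 3. The 3 genes of the MRN complex, which binds break ends, had differences of -0.58 for Mre11a, -0.14 for Rad50 and -0.10 for Nbn, and Rbbp8, which starts resection with that complex, was at -0.33.

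Checkpoint genes were lower in 4 of 6 cases, against 24.2% of all tested genes. Atm, the kinase that responds to double-strand breaks, had 3.52, 5.43 and 8.81 TPM in Upf2 Cre libraries, against 8.30, 10.5 and 19.4 TPM in Upf2 mock libraries (-0.90 ± 0.26, adjusted p = 0.010). The groups overlapped only between 8.30 and 8.81 TPM, where Upf2 Cre replicates 3 and 4 met Upf2 mock replicates 3 and 8. Its substrate kinase Chek2 had 8.24, 9.81 and 23.1 TPM in Upf2 Cre, against 13.1, 23.4 and 32.4 TPM in Upf2 mock (-0.89 ± 0.26, adjusted p = 0.011). Topbp1, which activates ATR at stalled forks, had 8.54, 14.3 and 28.7 TPM in Upf2 Cre, against 14.5, 37.0 and 55.2 TPM in Upf2 mock (-1.03 ± 0.31, adjusted p = 0.015).

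Atr itself was present at low levels and fell by 0.66 ± 0.23 (adjusted p = 0.029), with medians of 1.37 TPM in Upf2 Cre and 2.68 TPM in Upf2 mock. The ATR effector gene Chek1 and the adaptor gene Clspn had differences of similar size, -0.80 ± 0.43 and -0.59 ± 0.32, that were not called. Chek1 spread from 2.55 to 30.6 TPM among the Upf2 mock libraries alone.

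**Figure D2:**
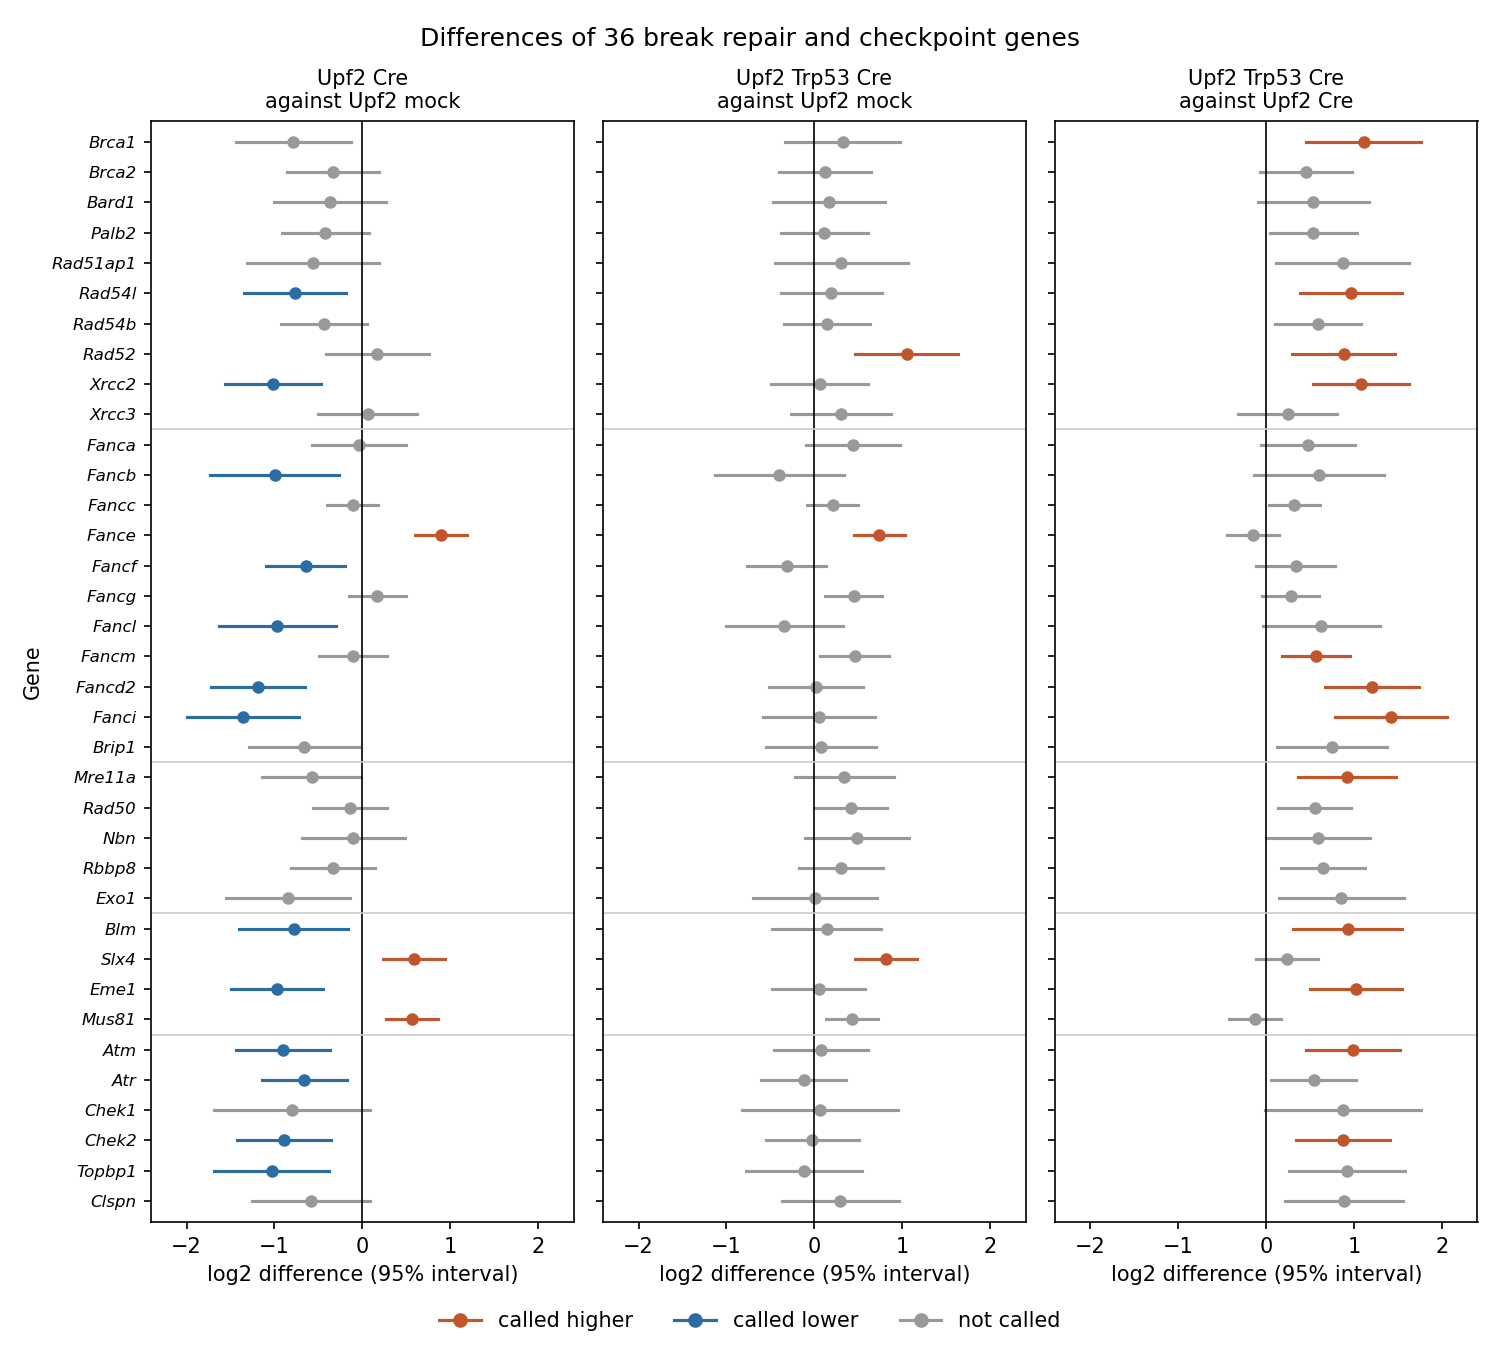
Points are log2 differences of the 36 genes from limma on log2(TPM + 1) with 95% intervals, 1 panel per comparison with n = 6 libraries a group, genes down the page by role; orange is called higher, blue called lower and grey not called at an adjusted p of 0.05. In Upf2 Cre against Upf2 mock 13 genes are blue and 3 orange, in Upf2 Trp53 Cre against Upf2 mock 3 are orange, and in Upf2 Trp53 Cre against Upf2 Cre 12 are orange.

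The levels of the 36 genes followed single libraries as well as groups. Upf2 mock replicate 3 had 33 of the 36 genes below the Upf2 mock mean, with a median of -0.83, while the medians of the other 5 Upf2 mock libraries ran from -0.26 to 0.53. In Upf2 Cre libraries the median was -0.13 in replicate 3 and -0.04 in replicate 4, but between -0.57 and -1.22 in the remaining 4, lowest in replicate 8. Without Upf2 mock replicate 3, 22 genes were lower (61.1%, against 24.8% of all tested genes). Without any 1 of Upf2 Cre replicate 8, Upf2 mock replicate 4 or Upf2 mock replicate 5 only 7 were, which is 19.4% of the 36, near the 16.8%, 19.0% and 17.4% of all tested genes in those fits. Without Upf2 Cre replicate 6 or Upf2 mock replicate 6, 8 were (22.2%, against 17.2% and 18.6% of all tested genes). The 7 genes Fanci, Fancd2, Xrcc2, Eme1, Atm, Chek2 and Topbp1 stayed lower, and Fance, Slx4 and Mus81 stayed higher, when each of the 18 libraries was left out in turn.

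Genes of DNA replication and of mitosis moved with the break repair genes. Of 34 replication genes, 14 were lower and none was higher in Upf2 Cre against Upf2 mock (median -0.64), and of 20 G2 and M phase genes 17 were lower and none was higher (median -1.14). Of all tested genes 24.2% were lower and 16.5% higher (median -0.12). Upf2 mock replicate 3 had a median of -1.95 for the replication genes, the lowest of all 18 libraries, and -0.60 for the G2 and M phase genes. The markers of neural progenitors summed to 3465 to 10344 TPM in Upf2 Cre libraries and 5050 to 13776 TPM in Upf2 mock libraries, and 5 of the 8 were lower. Astrocyte markers moved with them: 4 of 6 were lower and none was higher (median -0.998), S100b with groups that did not overlap, and they summed to 644 to 1403 TPM in Upf2 Cre and 830 to 1613 TPM in Upf2 mock libraries. Of 5 tested neuronal and 5 tested oligodendrocyte lineage markers, 1 was lower and 1 higher in each list. The part of the share of cycling cells, or of these cell types, in the differences of the repair genes was not tested.

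**Figure D3:**
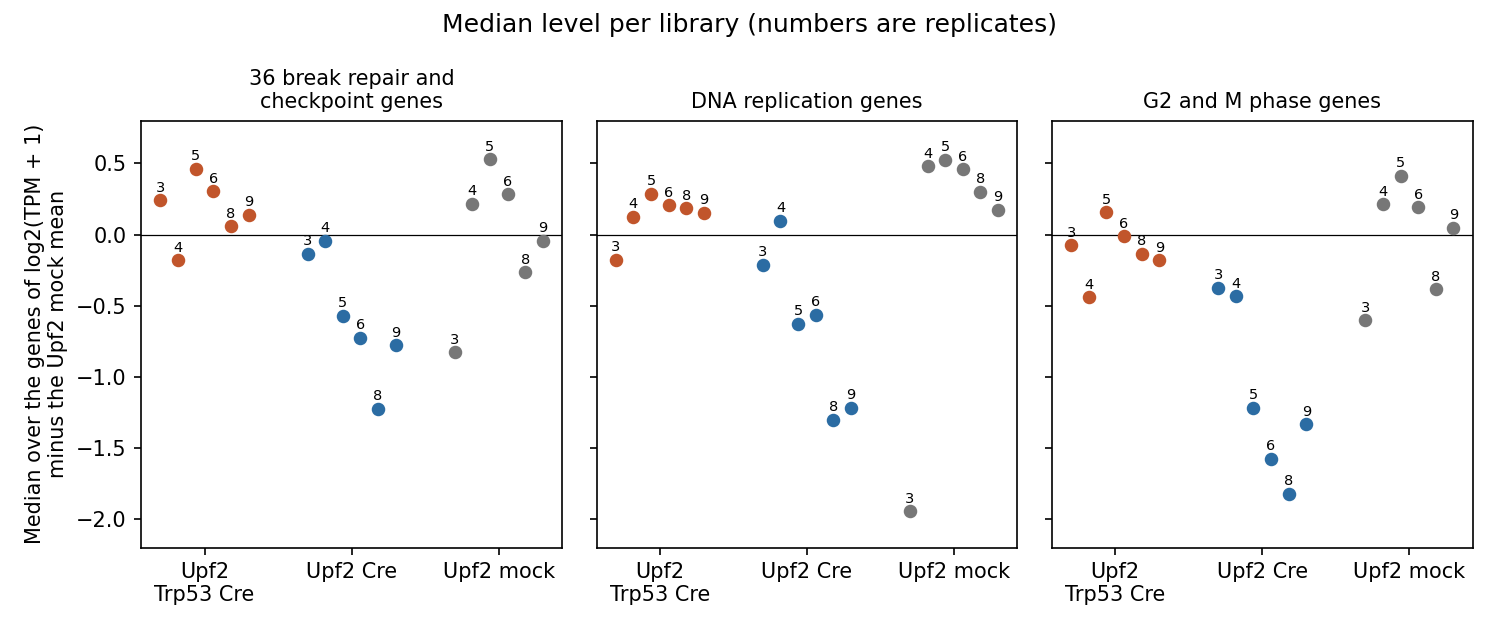
Each point is the median, over the genes of a list, of log2(TPM + 1) minus the Upf2 mock mean in 1 library, for the 36 break repair and checkpoint genes, 34 replication genes and 20 G2 and M phase genes; numbers are replicates. Upf2 mock replicate 3 lies below the other Upf2 mock libraries in all 3 panels, furthest for the replication genes at -1.95, and Upf2 Cre replicates 3 and 4 lie above the other Upf2 Cre libraries.

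Promoter sequence was read for these genes because E2F factors are described as their common regulators. A window from 250 bases before the start was available in RefSeq (GRCm38.p6) for 29 of the 36 genes. E2F sites were searched on both strands as TTCCCGC, or with other inner letters as TTCGCGC, or else as TTGCCGC, or lastly as TTGGCGC. They stood in a window of 10 of the 29 genes (34.5%), and in 7.89% of all 32851 single promoter windows. The letters TTTGAA or TTCGAA of the cell cycle homology region, searched the same way, stood in 2 of the 29 genes (6.90%), and in 17.1% of single windows. A gene with several windows was counted if any of them held a match, so shares of genes and of windows are unlike measures. A match in each of the 10 genes is printed with its flanks, 5′ to 3′ on the strand that reads the letters, with the E2F letters in capitals, from the gene with the lowest difference in Upf2 Cre against Upf2 mock to the one with the highest:
Topbp1 (chr9:103305188-103305214, minus strand): ggaaccgactTTCGCGCcaaccgagcg
Fancb (chrX:164980410-164980436, minus strand): agagcacttaTTCCCGCctctaccccg
Chek2 (chr5:110839821-110839847, minus strand): acgtcttggtTTCCCGCggctaatccc
Blm (chr7:80535124-80535150, minus strand): atcatccttcTTGCCGCgcagagcgtg
Fancf (chr7:51862372-51862398, plus strand): ccggggcacaTTGGCGCtgaaaatgaa
Bard1 (chr1:71103164-71103190, minus strand): gccgctcagtTTCCCGCtcaggaagtt
Brca2 (chr5:150522443-150522469, minus strand): gtgtgtctgtTTCCCGCtgtggcctaa
Fancm (chr12:65075539-65075565, plus strand): accaatcatcTTCCCGCcgcaaaatcg
Rad52 (chr6:119902556-119902582, minus strand): gcgatcagccTTCCCGCagccgcagca
Fancg (chr4:43010336-43010362, minus strand): tcttttcagtTTCCCGCggaaccgtct

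The lowest 5 of these 10 genes, Topbp1, Fancb, Chek2, Blm and Fancf, were those called lower, and Bard1, Brca2, Fancm, Rad52 and Fancg were not called. Genes with the letters had a median difference of -0.51, with 5 of 10 lower and none higher, and genes without them a median of -0.59, with 6 of 19 lower and 3 higher. The 3 higher genes, Fance, Slx4 and Mus81, had no match. The windows of Slx4 and of Fanci, both counted among the 19, lie inside the gene in GENCODE. For Slx4 and Fanci the sequence before the start in GENCODE was not read. The place of the window was checked in this way only for the genes whose longer stretches were to be printed. Other windows among the 19 may lie inside the gene too. The match of Fancg, at 43010336 to 43010362, lies inside that gene in GENCODE (43002343 to 43010506, minus strand) and not before its start. A match is one of letters and shows no binding.

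Longer promoter stretches are printed for a pair of genes that fell and a pair that rose, ending at the base before the gene start in the annotation, on the strand of the gene, with E2F letters in capitals. The stretch of Topbp1 holds 2 overlapping matches, that of Fancb 1, and those of Fance and Mus81 none:
Topbp1 (chr9:103305077-103305214, plus strand): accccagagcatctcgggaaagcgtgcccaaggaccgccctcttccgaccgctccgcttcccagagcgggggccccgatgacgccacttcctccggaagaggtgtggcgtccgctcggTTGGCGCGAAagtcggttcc
Fancb (chrX:164980342-164980591, plus strand): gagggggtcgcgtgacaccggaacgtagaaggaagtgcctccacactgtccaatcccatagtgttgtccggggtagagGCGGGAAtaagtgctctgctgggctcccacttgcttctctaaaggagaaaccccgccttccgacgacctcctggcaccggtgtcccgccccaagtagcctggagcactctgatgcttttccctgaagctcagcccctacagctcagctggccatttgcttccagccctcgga
Fance (chr17:28313280-28313518, plus strand): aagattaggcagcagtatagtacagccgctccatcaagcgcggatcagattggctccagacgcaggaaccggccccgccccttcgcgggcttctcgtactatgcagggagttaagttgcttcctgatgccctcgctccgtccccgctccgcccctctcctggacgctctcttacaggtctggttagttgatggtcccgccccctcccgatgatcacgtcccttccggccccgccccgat
Mus81 (chr19:5488403-5488629, minus strand): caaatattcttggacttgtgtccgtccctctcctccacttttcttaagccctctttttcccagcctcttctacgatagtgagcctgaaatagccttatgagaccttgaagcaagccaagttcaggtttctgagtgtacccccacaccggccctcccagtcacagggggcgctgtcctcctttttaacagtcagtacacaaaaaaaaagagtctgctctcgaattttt

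**Figure D4:**
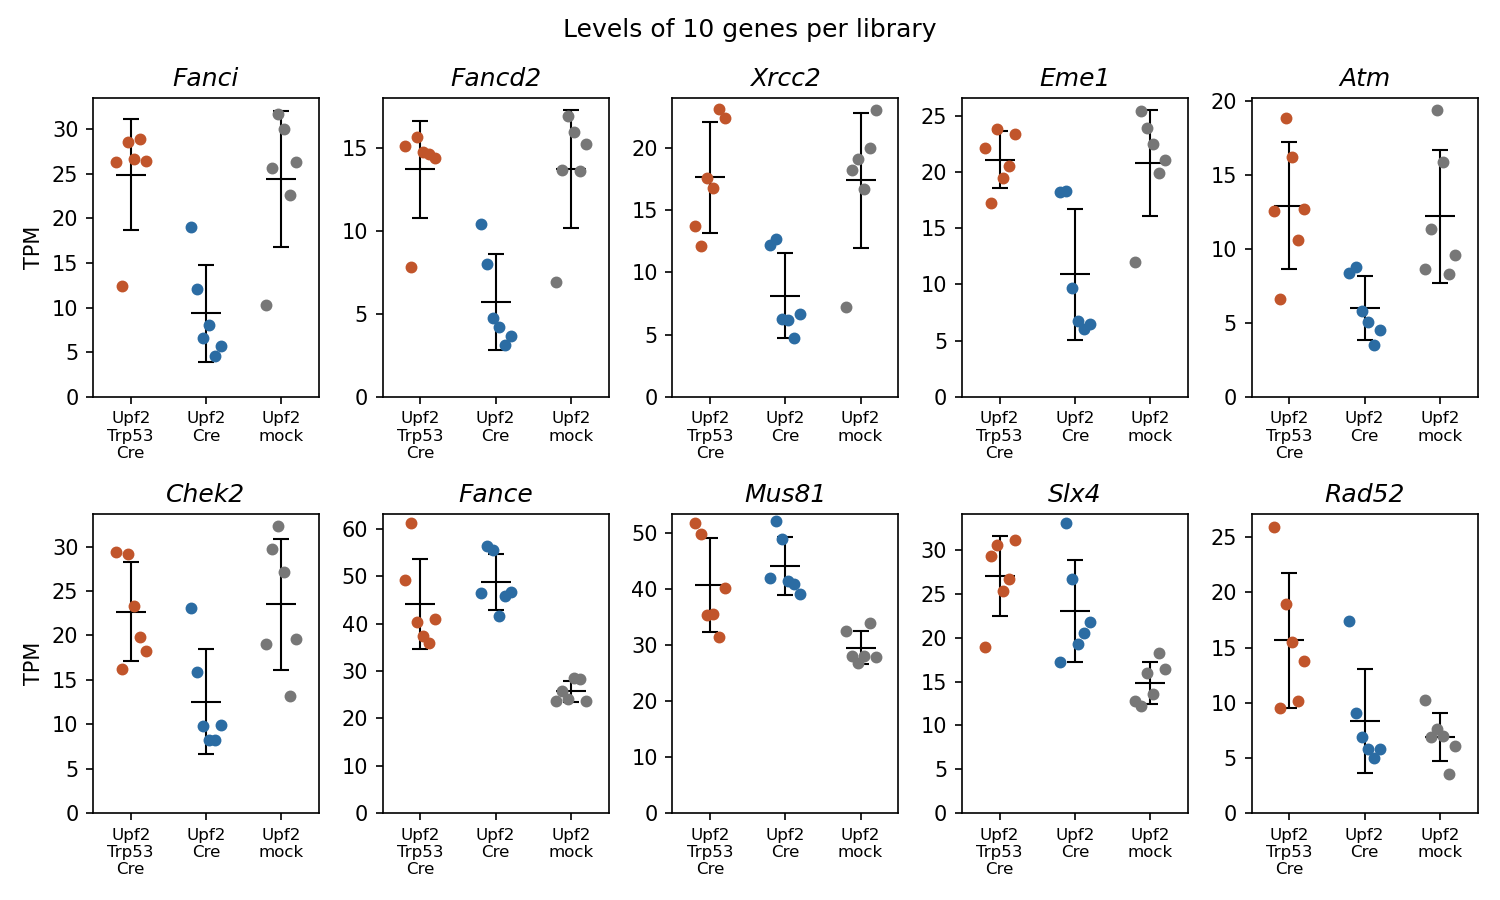
Points are TPM of 10 genes in each library, n = 6 a group, left to right by replicate number within a group; the bar and whiskers are mean and SD. Fanci, Fancd2, Xrcc2, Eme1, Atm and Chek2 have their lowest mean in Upf2 Cre, Fance and Mus81 are above all Upf2 mock libraries in every Upf2 Cre library, and Rad52 has its highest mean in Upf2 Trp53 Cre.

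In Upf2 Trp53 Cre cells none of the break repair genes was called lower than in Upf2 mock cells, and 3 were higher. Rad52, Slx4 and Fance were the 3, which makes 8.33% higher and 0 lower of the 36, against 10.4% higher and 1.09% lower over all tested genes, so the share called was near that of all genes. At an unadjusted p under 0.05 limma had 6 of the 36 higher and none lower, with no share of all tested genes computed at that threshold. The median difference was 0.16, against 0.08 over all tested genes, but it was -0.01 without Upf2 mock replicate 3 and -0.02 without the 3 libraries numbered 3. Without Upf2 mock replicate 3, 5 of the 36 were called higher, Mus81 and Fancg in addition, 13.9% against 12.4% of all tested genes. For 29 of the 36 genes the 95% interval of the difference lay within 1 log2 unit of 0 on both sides, and for 34 its lower end lay above -1. None of the 34 replication genes and none of the 20 G2 and M phase genes was called in this comparison, with medians of 0.09 and -0.16. Of the 5 neuronal markers tested, Tubb3, Nefm and Snap25 were higher and none was lower (median 1.10), Nefm and Snap25 with groups that did not overlap, and the 8 neuronal markers summed to 152 to 169 TPM in Upf2 Trp53 Cre and 92.1 to 201 TPM in Upf2 mock libraries. Of the 8 progenitor and 6 astrocyte markers, 1 each was lower. Their part in the result was not tested.

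Fance had 35.9, 40.7 and 61.2 TPM in the lowest, median and highest Upf2 Trp53 Cre library, against 23.7, 24.9 and 28.5 TPM in Upf2 mock (0.74 ± 0.14, adjusted p = 0.0013). Slx4 had 19.0, 28.0 and 31.2 TPM in Upf2 Trp53 Cre, against 12.2, 14.8 and 18.2 TPM in Upf2 mock (0.82 ± 0.17, adjusted p = 0.0027). For both, every Upf2 Trp53 Cre library lay above every Upf2 mock library, which held for 5.56% of the 36 genes and 7.08% of all tested genes, and for none of the 36 were all Upf2 Trp53 Cre libraries below all Upf2 mock libraries, against 0.841% of all tested genes. Mus81 had 31.4, 37.9 and 51.8 TPM in Upf2 Trp53 Cre, against 26.9, 28.1 and 34.0 TPM in Upf2 mock, and missed the threshold (0.43 ± 0.14, adjusted p = 0.055).

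Rad52, which in mammals anneals single strands and backs up recombination, was higher in Upf2 Trp53 Cre than in Upf2 mock cells, and its call against Upf2 Cre cells depended on the settings. Rad52 (ENSMUSG00000030166.14; chromosome 6, 119902698 to 119922828, plus strand) had 9.52, 14.7 and 26.0 TPM in Upf2 Trp53 Cre libraries, 4.96, 6.34 and 17.4 TPM in Upf2 Cre libraries and 3.57, 6.97 and 10.2 TPM in Upf2 mock libraries. In all 3 groups its highest library was replicate 3. The difference was 1.05 ± 0.28 against Upf2 mock (adjusted p = 0.017) and 0.88 ± 0.28 against Upf2 Cre (adjusted p = 0.043). The call against Upf2 mock held in every alternative run, but that against Upf2 Cre was lost after median-ratio scaling, after quantile normalization, with no filter on low values, with only these groups fitted and without 11 of the 18 libraries, left out in turn (adjusted p between 0.0028 and 0.12 over the alternatives). Fancb, Fancl and Fancf, all lower in Upf2 Cre, had differences of -0.40 ± 0.35, -0.34 ± 0.32 and -0.31 ± 0.22 in Upf2 Trp53 Cre against Upf2 mock, which were not called.

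The Cre groups were compared directly to see whether the doubly floxed line differed from the line with floxed Upf2 alone. Of the 36 genes, 12 were higher in Upf2 Trp53 Cre than in Upf2 Cre cells and none was lower (33.3% and 0 of the 36, against 11.8% higher and 2.46% lower over all tested genes; limma, adjusted p under 0.05). At an unadjusted p under 0.05, 23 were higher and none lower. The share of all tested genes was not computed at that threshold, so this count has no background to be read against. The median difference was 0.63, against 0.25 over all tested genes, and 34 of the 36 differences were above 0. No gene of the 36 had groups that did not overlap, against 1.87% higher and 0.848% lower of all tested genes. This comparison shares the Upf2 Cre libraries with that against Upf2 mock, so values low in those libraries enter both.

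Fanci had 12.4, 26.6 and 28.9 TPM in the lowest, median and highest Upf2 Trp53 Cre library, against 4.63, 7.33 and 19.1 TPM in Upf2 Cre libraries (1.42 ± 0.31, adjusted p = 0.0082). Fancd2 had 7.79, 14.7 and 15.6 TPM in Upf2 Trp53 Cre, against 3.11, 4.48 and 10.4 TPM in Upf2 Cre (1.20 ± 0.26, adjusted p = 0.0075). Both genes were lowest among Upf2 Trp53 Cre libraries in replicate 4, and the other 5 lay above every Upf2 Cre library. Fancm, a motor protein that carries the core complex to DNA, was higher at 0.56 ± 0.19 (adjusted p = 0.049).

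In the recombination group 4 of 10 genes were higher, against 11.8% of all tested genes. Brca1 had 9.33, 14.2 and 20.8 TPM in Upf2 Trp53 Cre libraries, against 3.22, 6.11 and 10.5 TPM in Upf2 Cre libraries (1.11 ± 0.31, adjusted p = 0.027). Only Upf2 Trp53 Cre replicate 4 lay below the highest Upf2 Cre library. Xrcc2 had 12.2, 17.2 and 23.1 TPM in Upf2 Trp53 Cre, against 4.71, 6.45 and 12.7 TPM in Upf2 Cre (1.07 ± 0.26, adjusted p = 0.016). Rad54l had 19.4, 21.9 and 25.3 TPM in Upf2 Trp53 Cre, against 5.69, 10.4 and 22.3 TPM in Upf2 Cre (0.96 ± 0.28, adjusted p = 0.029), and Rad52 was the fourth.

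Of the genes for processing of joint molecules, Eme1 had 17.3, 21.4 and 23.9 TPM in Upf2 Trp53 Cre libraries, against 6.03, 8.22 and 18.3 TPM in Upf2 Cre libraries (1.02 ± 0.25, adjusted p = 0.016), and Blm was higher at 0.92 ± 0.30 (adjusted p = 0.045). The break sensing gene Mre11a, the nuclease of the MRN complex, had 12.8, 20.9 and 26.6 TPM in Upf2 Trp53 Cre, against 6.10, 9.10 and 18.3 TPM in Upf2 Cre (0.92 ± 0.27, adjusted p = 0.031). Of the checkpoint genes, Atm had 6.61, 12.6 and 18.9 TPM in Upf2 Trp53 Cre, against 3.52, 5.43 and 8.81 TPM in Upf2 Cre (0.98 ± 0.26, adjusted p = 0.020). Chek2 was higher at 0.87 ± 0.26 (adjusted p = 0.031), while Topbp1, at 0.91 ± 0.31, missed the threshold (adjusted p = 0.055). The genes that were higher in Upf2 Cre than in Upf2 mock were not called between the Cre groups, where the difference was -0.15 for Fance (95% interval -0.45 to 0.14), -0.13 for Mus81 (-0.43 to 0.17) and 0.23 for Slx4 (-0.12 to 0.59).

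The count between the Cre groups depended on scaling and on single libraries. After median-ratio scaling, which puts the median of all genes at 0.02 in place of 0.25, only Fanci and Fancd2 were called, 5.56% of the 36 against 2.20% of all tested genes, and after quantile normalization these and Eme1 and Atm. The median of the 36 genes was then 0.41 under median-ratio scaling and 0.39 under quantile normalization, against 0.02 and 0.03 over all tested genes. Without Upf2 Cre replicate 8, 2 genes were higher, again Fanci and Fancd2, and without Upf2 Cre replicate 3, 22 were. Over all 15216 tested genes, 427 and 4139 were higher in these fits, against 1791 with all libraries. These were the lowest and highest counts over all genes with 1 library left out, so the swing was not particular to the 36. Without Upf2 Cre replicate 5, 6 or 9, 5, 5 and 4 of the 36 were higher. Without Upf2 Trp53 Cre replicate 5, 6 or 9, 4, 4 and 7 were, and without Upf2 mock replicate 3, 19 were. Shares of all tested genes called in these fits are not given here, so the counts are not read against them. The median difference in these fits ran from 0.56 to 0.70 for the 36, against 0.21 to 0.26 over all tested genes. With all libraries, replication genes and genes of G2 and M phase had medians of 0.72 and 1.08 in this comparison, against 0.25 over all tested genes. Of them 4 of 34 and 13 of 20 were higher and none lower, against 11.8% and 2.46% of all tested genes. The count of replication genes was near that share. Of the markers, 1 of the 8 progenitor and 2 of the 5 tested neuronal ones were higher. The part of these lists in the result was not tested.

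The annotation limits how these levels can be read. In GENCODE M21, 17 of the 36 genes have a transcript annotated as a target of nonsense-mediated decay, 47.2%, against 28.6% of 11939 tested protein-coding genes. The 3 genes higher in Upf2 Cre against Upf2 mock, Fance, Slx4 and Mus81, each have one, as do the 3 higher in Upf2 Trp53 Cre against Upf2 mock, and 5 of the 13 lower genes do (38.5%). Gene-level values do not show which transcript changed. Exons of Fanci overlap those of Polg on the opposite strand over 16.0% of exonic bases, those of Rad54l overlap Lrrc41 over 15.4%, those of Fancf overlap Gas2 over 15.0% and those of Fancl overlap Vrk2 over 13.7%; whether reads were counted by strand is not given in the sources used here. Atm, Chek2, Topbp1, Xrcc2, Rad52, Blm and Slx4 have no exon shared with another gene.

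Other genes of the same pathways moved in both directions. Of 27 further genes of recombination and the Fanconi pathway, 10 were lower and 2 higher in Upf2 Cre against Upf2 mock (median -0.33), 2 were higher in Upf2 Trp53 Cre against Upf2 mock and 10 were higher in Upf2 Trp53 Cre against Upf2 Cre. The shares of all tested genes were, in the same order, 24.2% lower and 16.5% higher, 10.4% higher, and 11.8% higher. Rpa1 and Rpa3, subunits of the protein that coats single-stranded DNA, were lower in Upf2 Cre at -1.24 ± 0.26 (adjusted p = 0.0018) and -1.72 ± 0.41 (adjusted p = 0.0039), and Ube2t, the conjugating enzyme of the Fanconi ligase, was lower at -1.11 ± 0.27 (adjusted p = 0.0041). Of 16 further checkpoint genes, 5 were lower and 1 higher in Upf2 Cre against Upf2 mock, against 24.2% and 16.5% of all tested genes. Within the clamp that is loaded at stalled forks to activate ATR, Rad9a was higher by 1.20 ± 0.20 (adjusted p = 0.00034), and Hus1 and Rad1 were lower, at -0.90 ± 0.17 (adjusted p = 0.00092) and -0.83 ± 0.22 (adjusted p = 0.0072). Rad9a was also higher in Upf2 Trp53 Cre against Upf2 mock, by 1.49 ± 0.20 (adjusted p = 2.9e-05).

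End joining, which rejoins breaks without a template, showed the same mixture. Of its 10 genes 4 were lower and 2 higher in Upf2 Cre against Upf2 mock, against 24.2% and 16.5% of all tested genes. Xrcc6 and Xrcc5, the subunits of the Ku ring that caps broken ends, were lower at -1.22 ± 0.28 (adjusted p = 0.0033) and -0.98 ± 0.27 (adjusted p = 0.0092), and the kinase gene Prkdc was lower at -0.86 ± 0.21 (adjusted p = 0.0043). Paxx, which stabilises Ku, and the polymerase gene Polm were higher at 1.75 ± 0.26 (adjusted p = 0.00014) and 0.94 ± 0.21 (adjusted p = 0.0032), and were higher in Upf2 Trp53 Cre against Upf2 mock at 1.55 and 0.77.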

How the data were processed

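The deposited table holds gene abundances in TPM, made by the authors, for 18 libraries of total RNA. Libraries were made with a TruSeq Stranded Total RNA kit, per the labels' protocols, and reads were aligned with STAR to mm10, per the submitters' processing notes. The quantifier, the annotation and whether counting used strand are not given in the sources used here. TPM keep no depth, so no counting intervals can be given.

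Groups are those of the labels. The 15216 genes that reached 1 TPM in 6 or more libraries were fitted on the log2(TPM + 1) scale with limma 3.58.1 in R 4.3.3, as 3 group means over all 18 libraries with a mean-variance trend, which was also tested on simulated data. Tests were two-sided, with Benjamini-Hochberg adjustment over all genes and a threshold of 0.05. Upf2 and Trp53 were compared by exact permutation, with 6 tests adjusted together. Intervals are at 95%. The members and the other gene lists were chosen with earlier results of these data known, and some of their genes are given by count only.

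Values are given in full for up to 8 called members in each direction with the smallest adjusted p, for members called against the majority and for the largest difference in each role; from the other lists, a selection of the 4 called genes with the smallest adjusted p, to which Xrcc5 and Ube2t were added after their values were seen. The genes in the plot of levels are a selection of these. Rad51b and Rad51d are named because their groups did not overlap in Upf2 Cre against Upf2 mock. Gene positions, transcript types and overlaps are from GENCODE M21 (GRCm38), where all 36 members matched by versioned ID. Promoter windows are from RefSeq (GRCm38.p6). Promoters were to be printed for the 3 lowest and the 3 highest members in the promoter table, which has no entry for Fancd2 and Xrcc2, and those of Fanci and Slx4 were left out because their windows lie inside the gene in GENCODE. Alternatives tried were median-ratio scaling, quantile normalization, a replicate block, no minimum level, a minimum mean of 5 TPM, 0.1 as the pseudocount, a fit of only the compared groups, and leaving out each library, or the 3 libraries numbered 3. Plots were drawn with Matplotlib 3.10.9 in Python 3.11.15.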

Additional observations from a re-analysis of the deposited data

Results flagged for a closer look

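In 12 of 108 sets of 6 libraries (36 genes in 3 groups) a single library lay far from the other 5, by the ratio of its gap to the range of the group; chance gives about 1 in 20. Of the 12, 9 were low values in Upf2 mock replicate 3. That library had 10.3 TPM of Fanci, 6.94 TPM of Fancd2, 7.23 TPM of Xrcc2, 11.96 TPM of Eme1 and 8.53 TPM of Rad54l. It also had 2.37 TPM of Bard1, 7.94 TPM of Clspn, 3.45 TPM of Fanca and 4.64 TPM of Xrcc3. For Fanci and Bard1 the other 5 Upf2 mock libraries lay between 22.6 and 31.7 TPM and between 11.01 and 15.9 TPM.

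Upf2 Trp53 Cre replicate 4 was low for both genes of the FANCI and FANCD2 pair, with 12.4 TPM of Fanci, against 26.3 to 28.9 TPM in the other 5 libraries, and 7.79 TPM of Fancd2, against 14.4 to 15.6 TPM. Upf2 mock replicate 5 was high for Fancm, with 6.51 TPM against 2.97 to 3.87 TPM in the other 5. The reasons were not tested.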

How the results depend on the processing

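No called member changed direction under any alternative run. Members that were not called did: in Upf2 Trp53 Cre against Upf2 mock, 6 of the 36 differences were below 0 as deposited, 14 after median-ratio scaling, 16 after quantile normalization and 19 without the 3 libraries numbered 3. The higher calls of Fance, Slx4 and Mus81 in Upf2 Cre against Upf2 mock held without each of the 18 libraries in turn. The table keeps no depth; the standard errors of the log2 differences of the 36 genes ran from 0.14 to 0.43.

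Of the 36 genes, 13 were lower in Upf2 Cre against Upf2 mock. With no filter on low values 7 were (19.4%, against 8.37% of all genes in that fit). Without the 3 libraries numbered 3, 24 were. The median difference was then -0.88 for the 36 and -0.12 over all tested genes, and the share of all genes called lower is not given here. With 1 library left out the count lay between 7 (without Upf2 Cre replicate 8, Upf2 mock replicate 4 or 5) and 22 (without Upf2 mock replicate 3). At the low end of these fits with 1 library left out that is 19.4%, near the 16.8% to 19.0% of all tested genes. The 12 higher in Upf2 Trp53 Cre against Upf2 Cre (33.3%, against 11.8% of all tested genes) became 6 with no filter (16.7%, against 5.29% of all genes in that fit). They became 2 with median-ratio scaling, 4 with quantile normalization and 24 without the libraries numbered 3. With 1 library left out the count lay between 2 (without Upf2 Cre replicate 8) and 22 (without Upf2 Cre replicate 3). The 3 higher in Upf2 Trp53 Cre against Upf2 mock became 5 without the libraries numbered 3, and between 3 and 5 with 1 left out. For Upf2 Trp53 Cre against Upf2 Cre, counts over all genes under both scalings are in the next paragraph. So are those of both comparisons with libraries left out.

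Over all tested genes, 2506 were higher and 3686 lower in Upf2 Cre against Upf2 mock, 1586 and 166 in Upf2 Trp53 Cre against Upf2 mock, and 1791 and 374 in Upf2 Trp53 Cre against Upf2 Cre. Median-ratio scaling gave 419 lower in the second and 334 higher and 680 lower in the third, and quantile normalization gave 478, 539 and 592. The share of higher among called genes was 40.5%, 90.5% and 82.7% as deposited, 51.7%, 71.7% and 32.9% with median-ratio scaling and 48.2%, 69.3% and 47.7% with quantile normalization. Without the 3 libraries numbered 3, 3885 were higher in the first, 2874 higher and 680 lower in the second, and 4264 higher and 1326 lower in the third. With 1 library left out the counts ranged from 1916 to 3507 and 2552 to 4771 in the first, 1221 to 1986 and 112 to 373 in the second, and 427 to 4139 and 171 to 1375 in the third.

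Libraries with the same replicate number deviated together in most pairs but not in every pair (correlations from -0.171 to 0.742). Those numbered 8 did so in each comparison (0.575, 0.509 and 0.499). For each library of the first-named group, the library of the other group that deviated most alike was also read. It carried the same number for number 8 in each comparison, another number for number 4 in each, and varied for the rest. The labels do not say that the numbers mark a shared animal, so the main fit took no pairing. Whether the numbers mark a shared source was not tested. With a replicate block, 15 of the 36 genes were lower in the first comparison, 6 higher in the second and 18 higher in the third. Over all genes 2532 were higher and 438 lower in the second and 3586 higher and 859 lower in the third. The count over all genes in the first is not given here, so the 15 is not read as a result about the 36. The causes of these changes were not tested.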

Other observations

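Excision repair, which removes damaged bases and bulky lesions, and the repair genes described as p53 targets were called in both directions in equal number. Of 19 such genes, 4 were higher and 4 lower in Upf2 Cre against Upf2 mock, with a median difference of -0.02 (limma, adjusted p under 0.05; 16.5% higher and 24.2% lower over all tested genes). Ercc2, a helicase of the transcription factor TFIIH, was higher by 1.06 ± 0.16 (SE; adjusted p = 0.0002), and its partner helicase Ercc3 was lower at -0.88 ± 0.19 (adjusted p = 0.0022). Ogg1, which removes oxidised guanine, was higher by 0.72 ± 0.18 (adjusted p = 0.0045). In Upf2 Trp53 Cre against Upf2 mock 4 of the 19 were higher, against 10.4% of all tested genes. Among the 4 were Ercc2 by 0.87 ± 0.16 (adjusted p = 0.0011), Ogg1 by 0.90 ± 0.18 (adjusted p = 0.0016) and Ercc8 by 1.34 ± 0.30 (adjusted p = 0.0047).

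Polk, a polymerase that copies past damaged bases, and Ercc5, a nuclease of nucleotide excision repair, were the only genes of the 4 further repair and checkpoint lists called lower in Upf2 Trp53 Cre against Upf2 Cre. Polk was at -0.84 ± 0.16 (adjusted p = 0.0039) and Ercc5 at -0.72 ± 0.18 (adjusted p = 0.019), and every Upf2 Trp53 Cre library lay below every Upf2 Cre library for both. Against Upf2 mock, both were higher in Upf2 Cre, by 0.55 ± 0.16 (adjusted p = 0.013) and 0.70 ± 0.18 (adjusted p = 0.0066).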
